A study of Mus musculus with 6 samples.

Results

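The mitochondrial ribosomal protein genes are the nuclear genes whose symbols begin with *Mrpl* or *Mrps* followed by a number. Taking every listed gene with such a symbol (with at most a final letter a, b or c) gave 77 genes of the 22248 genes measured, and 50 of them encode proteins of the large subunit, 26 encode proteins of the small subunit, and 1, *Mrps36*, encodes a protein now known as a part of the 2-oxoglutarate dehydrogenase complex. RNA was sequenced from resting bone-marrow-derived macrophages (BMDMs), which are bone marrow cells differentiated with M-CSF, of C57BL/6 mice labelled as postnatal week 10. Control BMDMs (*Lyz2cre*, 3 libraries) carried the Cre recombinase under the *Lyz2* promoter alone, and CITED2-deficient BMDMs (*Cited2 fl/fl*:*Lyz2cre*, 3 libraries) carried in addition 2 floxed *Cited2* alleles. The study asked what the loss of CITED2, a transcriptional co-regulator, does to gene expression in unstimulated macrophages. By the methods of the study both groups carried 1 Cre allele, a number that the labels do not give. The labels number the libraries without saying that each came from another mouse or culture, so p-values measure the spread between these libraries, which may be technical.

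The mitochondrial ribosome (mitoribosome) translates the few mRNAs that mitochondrial DNA (mtDNA) encodes, all of which are subunits of the respiratory chain and of ATP synthase. Its RNA is made inside the organelle, whereas all of its proteins are made from nuclear genes in the cytosol and are imported. Some of these proteins descend from proteins of bacterial ribosomes, and others were gained by the mitochondrial ribosome. Macrophages change the balance between glycolysis and mitochondrial respiration when they are activated.

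The depth recovered from the deposited values was 17289286 to 18952077 fragments per control library and 22583995 to 26100410 per CITED2-deficient library, so the CITED2-deficient libraries were the deeper ones. *Cited2* itself was at 71.7, 79.3 and 75.5 FPKM (fragments scaled to transcript length and to the mapped fragments of the library) in control libraries and at 9.27, 7.22 and 7.53 FPKM in CITED2-deficient libraries. All 8 macrophage markers were detected, of which 5 were lower, 1 was higher and 2 did not pass. *Adgre1*, the gene for F4/80, was at 2193 to 2234 FPKM in control and 1748 to 1815 FPKM in CITED2-deficient libraries. *Fcgr1*, an Fc receptor, was the higher one, at 171.7 to 173.3 FPKM in control and 467.9 to 501.4 FPKM in CITED2-deficient libraries, and *Cd68* and *Cd14* did not pass. *Lyz2*, the gene that carries the Cre insertion, was at 30.6 to 32.5 FPKM in control and 9.39 to 10.04 FPKM in CITED2-deficient libraries. Of the fibroblast or stromal markers, 6 of 8 passed the filter and all 6 were higher in CITED2-deficient BMDMs. The summed FPKM of those 8 markers was 42.4 to 50.6 in control and 170.4 to 540.4 in CITED2-deficient libraries, with the highest sum in CITED2-deficient replicate 1. Of the granulocyte markers, 7 of 9 tested were lower and 1 was higher. The summed FPKM of all 10 markers was 744.5 to 813.2 in control and 661.9 to 780.4 in CITED2-deficient libraries. These sums hide larger changes, such as mean FPKM of 16.2 and 1.95 for *Mpo*, and 94.3 and 177.4 for *Ltf*, the higher one. *Pf4*, a megakaryocyte marker, was lower (mean FPKM 319.7 and 75.4), and *Itga2b* and the dendritic cell marker *Itgax* were higher. Among all tested genes 34.6% were lower and 16.7% were higher. None of the 7 lymphocyte markers and none of the 4 erythroid markers found reached a mean of 1 FPKM. In bulk RNA, a change in the number of cells of a type and a change in RNA per cell cannot be told apart, and the part of these other cell types in the results that follow was not tested.

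All 77 mitochondrial ribosomal protein genes were expressed in BMDMs and all passed the filter of a mean of at least 1 FPKM. Their mean FPKM over the 6 libraries ran from 4.06 to 73.8, and the median of their means in control BMDMs alone was 16.9. *Mrps21*, *Mrpl28* and *Mrpl27* had the highest mean FPKM over the 6 libraries, and *Mrps22*, *Mrpl47* and *Mrps30* had the lowest. Where fragment numbers could be recovered (72 of 77 genes), a gene had 106 to 1010 fragments per library. They could not be recovered as whole numbers for *Mrpl11*, *Mrpl16*, *Mrpl28*, *Mrpl43* and *Mrpl49*. The standard deviation between replicates was a median of 6.07% of the mean in control and 5.59% in CITED2-deficient BMDMs.

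In CITED2-deficient BMDMs most of these genes were close to their control level, 16 were called lower and 3 were called higher. This comparison used limma on log2(FPKM + 1) with Benjamini-Hochberg adjustment over the 11687 genes that passed the filter, and a gene was called when its adjusted p was below 0.05. Of the 77 genes, 24.7% were called, whereas 51.3% of all tested genes were called. The lower calls were 20.8% of the mitochondrial ribosomal protein genes, against 34.6% of all tested genes. The higher calls were 3.90%, against 16.7% of all tested genes. At an unadjusted p below 0.05, 23 of the 77 genes passed, against 57.2% of all tested genes. The number of genes whose 3 CITED2-deficient libraries all lay below the 3 control libraries was 17, where the same held for 40.9% of all tested genes. The number that lay wholly above was 5, against 19.0% of all tested genes, and 59.9% of all tested genes did not overlap in either direction.

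The changes were small as well as few. The log2 fold change of the 77 genes (CITED2-deficient minus control, on the scale of FPKM + 1, which understates the change of low genes) ran from -0.60 to 0.27, and 59 genes (76.6%) were within 0.2 of 0. Among all tested genes 49.6% were within 0.2 of 0, and among the 7529 tested genes with a mean FPKM between those of the lowest and the highest of the 77 genes, 54.1% were within 0.2 and 51.5% were called. Those 7529 genes had longer transcripts (median 1740 bases, against 1075 for the 77). Their median standard error was 0.063, against 0.072 for the 77. The part of this difference in the share of calls was not tested. A log2 fold change of 1 or more in either direction was seen in 5.33% of all tested genes and in none of the 77. The median size of the log2 fold change was 0.104 for the 77 genes and 0.202 for all tested genes.

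**Figure D1:**
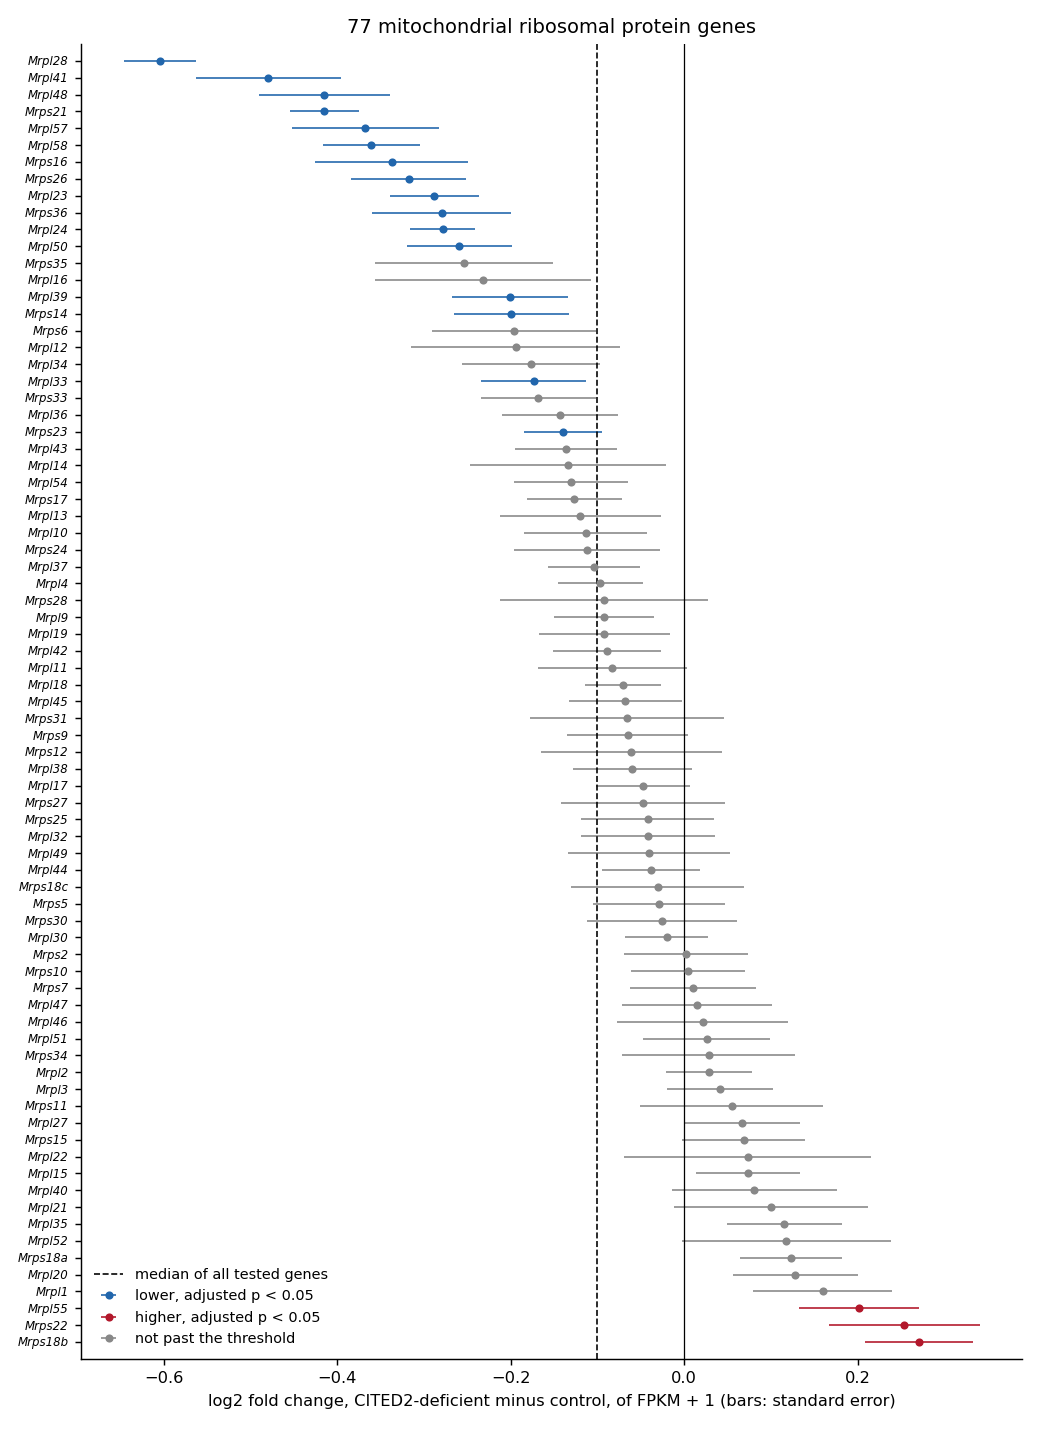
Log2 fold change (CITED2-deficient minus control, of FPKM + 1) of the 77 mitochondrial ribosomal protein genes, sorted, with 1 gene per row; bars are the standard error from limma over 3 control and 3 CITED2-deficient libraries. The 16 lower calls (blue) and 3 higher calls (red) stand toward the ends, 58 genes (gray) did not pass the threshold, and the dashed line is the median of all 11687 tested genes at -0.10.

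The direction of the family as a whole depended on how libraries were scaled. The median log2 fold change was -0.07 for the 77 genes and -0.10 for all tested genes with FPKM as deposited, and it was 0.03 and -0.01 after the libraries were scaled so that their typical gene sat at the same level (median-ratio scaling, by the median over genes of the ratio to the gene's geometric mean). With FPKM as deposited 53 genes were negative and 24 were positive, whereas after median-ratio scaling 32 were negative and 45 were positive. After median-ratio scaling 19 of the 77 genes were called, against 44.4% of all tested genes. These were 11 lower, against 21.3% of all tested genes, and 8 higher, against 23.1% of all tested genes. All 11 lower calls were among the 16, and the 5 that lost the call were *Mrpl33*, *Mrpl39*, *Mrps14*, *Mrps23* and *Mrps36*. The 5 that gained a higher call were *Mrpl1*, *Mrpl15*, *Mrpl20*, *Mrpl35* and *Mrps18a*. Without CITED2-deficient replicate 1, the library with the highest stromal sum, 17 genes were lower and 2 were higher. With any 1 library left out, 5211 to 5475 of all tested genes were called, against 5994 with all libraries. The remaining CITED2-deficient libraries still had stromal sums of 170.4 and 171.0, against 42.4 to 50.6 in control. Leaving out replicate 1 therefore does not test the part of stromal cells. Across 19 settings, that of the test above included, 10 genes were lower in every one (*Mrpl23*, *Mrpl24*, *Mrpl28*, *Mrpl41*, *Mrpl48*, *Mrpl57*, *Mrpl58*, *Mrps16*, *Mrps21* and *Mrps26*), 1 gene, *Mrps18b*, was higher in every one, and 42 genes were called in none of the settings in which they were tested.

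The lower calls in the large subunit numbered 10 of 50 genes, and 4 of the 5 largest falls among the 77 genes were in this subunit. *Mrpl28*, a homolog of bacterial L28, was at 62.1, 63.0 and 62.4 FPKM in control and 43.0, 39.5 and 39.8 FPKM in CITED2-deficient libraries. Its mean FPKM fell by 34.7%, with a log2 fold change of -0.60 ± 0.04 (SE, n = 3 and 3, limma adjusted p = 3.54e-06), and the groups lay far apart. *Mrpl41*, a mitochondria-specific protein, was at 26.7, 29.0 and 24.6 FPKM in control and 19.1, 16.9 and 20.9 FPKM in CITED2-deficient libraries. The groups did not overlap, and the log2 fold change was -0.48 ± 0.08 (limma adjusted p = 0.00129). *Mrpl48*, also mitochondria-specific, was at 18.4, 20.2 and 18.4 FPKM in control and 15.7, 13.2 and 13.2 FPKM in CITED2-deficient libraries. Its log2 fold change was -0.41 ± 0.08 (limma adjusted p = 0.00163), and CITED2-deficient replicate 1 was the library nearest the controls.

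*Mrpl57* and *Mrpl58* are mitochondria-specific proteins, and *Mrpl58* (also known as Ict1) in addition releases peptides from stalled ribosomes. *Mrpl57* was at 10.3, 10.5 and 10.2 FPKM in control and 8.51, 6.75 and 8.21 FPKM in CITED2-deficient libraries. *Mrpl58* was at 14.6, 15.4 and 14.7 FPKM in control and 11.2, 11.02 and 11.9 FPKM in CITED2-deficient libraries. For both genes every CITED2-deficient library was below every control library, with log2 fold changes of -0.37 ± 0.08 for *Mrpl57* (limma adjusted p = 0.00594) and -0.36 ± 0.06 for *Mrpl58* (limma adjusted p = 0.00065). The other lower calls of this subunit were *Mrpl23* (-0.29) and *Mrpl24* (-0.28), homologs of the bacterial proteins at the end of the exit tunnel, *Mrpl50* (-0.26), *Mrpl39* (-0.20) and *Mrpl33* (-0.17), all log2 fold changes. *Mrpl33* lost the call without any single library other than control replicate 2 (-0.13 to -0.194 on the log2 scale), and *Mrpl39* lost it without control replicate 2, control replicate 3, CITED2-deficient replicate 2 or CITED2-deficient replicate 3. *Mrpl24* was among the most even, at 41.7, 42.2 and 43.4 FPKM in control and 34.4, 35.1 and 34.9 FPKM in CITED2-deficient libraries.

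In the small subunit 5 of 26 genes were lower. *Mrps21*, a homolog of bacterial S21 and the most highly expressed of the 77 genes, was at 84.4, 82.8 and 86.2 FPKM in control and 66.2, 61.3 and 61.9 FPKM in CITED2-deficient libraries. Its mean FPKM fell by 25.2%, with a log2 fold change of -0.41 ± 0.04 (limma adjusted p = 2.86e-05), and the gap between the groups was wider than the range within either. *Mrps16*, a homolog of bacterial S16, was at 8.63, 8.47 and 7.86 FPKM in control and 5.91, 6.01 and 7.27 FPKM in CITED2-deficient libraries. The third CITED2-deficient library lay just below the controls, and the log2 fold change was -0.34 ± 0.09 (limma adjusted p = 0.011). *Mrps26*, a mitochondria-specific protein, was at 8.91, 9.59 and 9.87 FPKM in control and 7.25, 7.55 and 7.36 FPKM in CITED2-deficient libraries (log2 fold change -0.32 ± 0.07, limma adjusted p = 0.00358). *Mrps14* and *Mrps23* were the remaining lower calls, with log2 fold changes of -0.20 and -0.14. *Mrps14* lost the call without any single library other than CITED2-deficient replicate 1, and *Mrps23* lost it without any control library or CITED2-deficient replicate 2. *Mrps36*, which despite its name belongs to the 2-oxoglutarate dehydrogenase complex of the citric acid cycle, was at 22.4, 25.1 and 21.7 FPKM in control and 16.7, 20.02 and 19.8 FPKM in CITED2-deficient libraries (log2 fold change -0.28 ± 0.08, limma adjusted p = 0.0173). Without control replicate 2 its log2 fold change was -0.218 and the call was lost.

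The 3 higher calls were *Mrps18b*, *Mrps22* and *Mrpl55*. *Mrps18b*, a small-subunit protein of the S18 family, was at 12.3, 11.1 and 12.2 FPKM in control and 14.3, 15.3 and 14.0 FPKM in CITED2-deficient libraries. All CITED2-deficient libraries were above all controls, and the log2 fold change was 0.27 ± 0.06 (limma adjusted p = 0.00601). *Mrps22*, a mitochondria-specific protein of the small subunit, was at 4.22, 4.56 and 3.85 FPKM in control and 5.45, 5.17 and 4.998 FPKM in CITED2-deficient libraries (log2 fold change 0.25 ± 0.09, limma adjusted p = 0.0362). *Mrpl55*, a large-subunit protein, was at 12.5, 13.4 and 12.7 FPKM in control and 13.8, 14.97 and 16.3 FPKM in CITED2-deficient libraries (log2 fold change 0.20 ± 0.07, limma adjusted p = 0.0366). The groups did not overlap for either gene, but both lost the call when control replicate 1 (log2 fold changes 0.256 for *Mrps22* and 0.181 for *Mrpl55*), control replicate 3 (0.204 and 0.194), CITED2-deficient replicate 2 (0.258 and 0.202) or CITED2-deficient replicate 3 (0.278 and 0.144) was left out. *Mrps22* also lost it without CITED2-deficient replicate 1 (0.225).

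**Figure D2:**
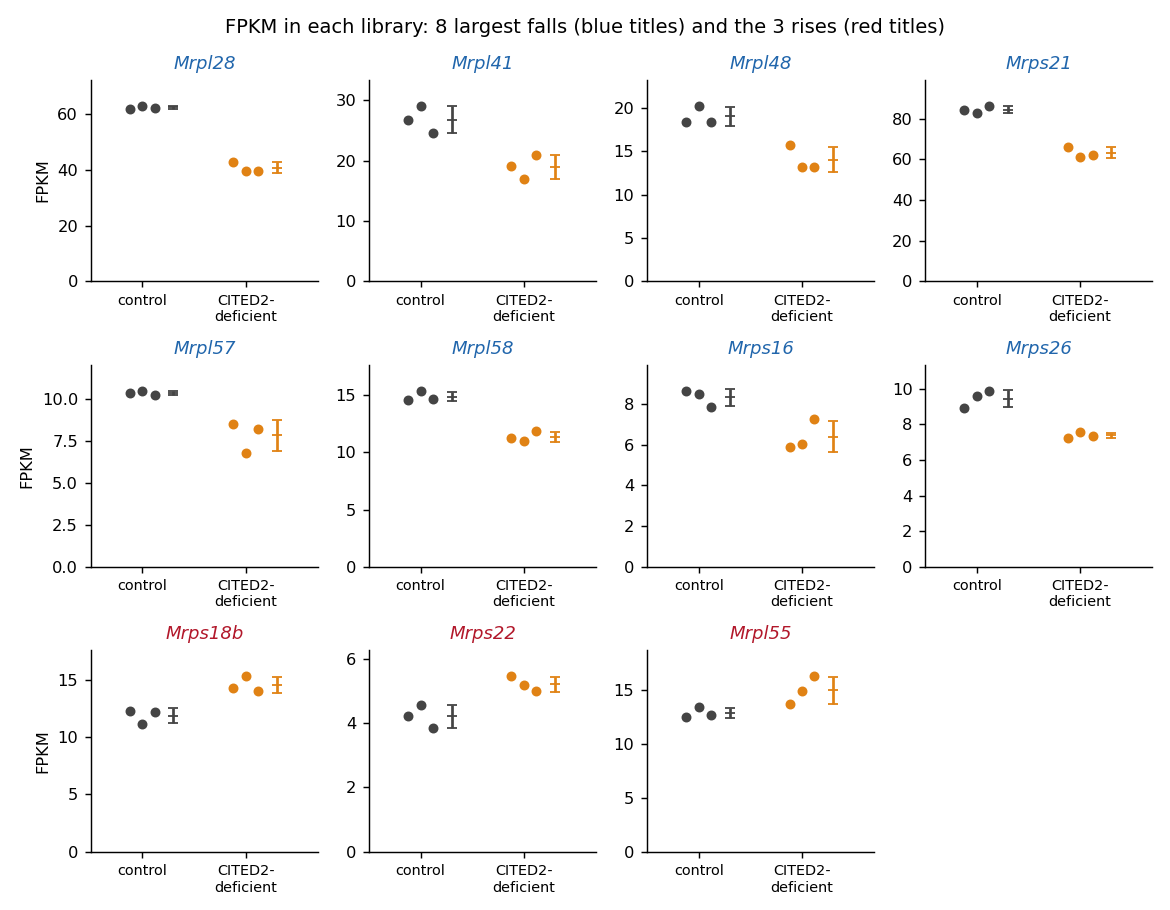
FPKM of the 8 genes with the largest falls (blue titles) and the 3 genes with a rise (red titles) among the 77, with 1 point per library (3 control, gray, and 3 CITED2-deficient, orange) and the mean with its SD beside the points; each vertical axis starts at 0. The 2 groups do not overlap in any of the 11 genes, and the fall of *Mrpl28* from about 62 to about 40 FPKM is the largest.

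The S18 family has 3 members in mammals, which gave different calls. *Mrps18c*, the small-subunit counterpart of bacterial S18, was at 25.8, 28.02 and 25.1 FPKM in control and 30.9, 23.8 and 23.2 FPKM in CITED2-deficient libraries (log2 fold change -0.03 ± 0.10). *Mrps18a*, which sits in the large subunit, was at 29.7, 29.5 and 30.2 FPKM in control and 35.4, 30.03 and 32.3 FPKM in CITED2-deficient libraries (log2 fold change 0.12 ± 0.06, limma adjusted p = 0.111). Neither passed the threshold with FPKM as deposited, *Mrps18a* passed it as higher after median-ratio scaling, and *Mrps18b* passed it as higher under both. The difference between the 3 genes was not tested.

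Several genes with well described roles in the mitoribosome were among the 58 that did not pass. *Mrpl10* and *Mrpl12* form the stalk that recruits translation factors. *Mrpl10* was at 19.9, 22.5 and 18.3 FPKM in control and 18.9, 18.3 and 18.4 FPKM in CITED2-deficient libraries (log2 fold change -0.11 ± 0.07). *Mrpl12* was at 16.1, 17.9 and 16.9 FPKM in control and 16.5, 11.6 and 16.5 FPKM in CITED2-deficient libraries (log2 fold change -0.19 ± 0.12), so that CITED2-deficient replicate 2 alone stood low. *Mrpl45*, which tethers the ribosome to the inner membrane, had 17.8 to 20.1 FPKM in control and 16.9 to 19.0 FPKM in CITED2-deficient libraries (log2 fold change -0.07 ± 0.07). *Mrpl44*, which carries a ribonuclease III fold, had 17.1 to 17.3 FPKM in control and 15.9 to 17.97 FPKM in CITED2-deficient libraries (log2 fold change -0.04 ± 0.06). These groups overlapped, as did those of *Mrpl32* (log2 fold change -0.04 ± 0.08), *Mrps12* of the decoding center (-0.06 ± 0.10), *Mrpl27* of the peptidyl transferase center (0.07 ± 0.07), *Mrpl47* (0.01 ± 0.09) and *Mrps30* (-0.03 ± 0.09), which sits in the large subunit despite its name. After median-ratio scaling the log2 fold changes of *Mrpl32*, *Mrpl44*, *Mrpl45*, *Mrps12* and *Mrps30* turned positive, and those of *Mrpl27* and *Mrpl47* stayed positive.

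Mitoribosome proteins that go by other names were mostly not called. *Dap3*, a GTP-binding protein of the small subunit, was at 25.4, 25.2 and 26.4 FPKM in control and 23.5, 22.3 and 23.5 FPKM in CITED2-deficient libraries and was called lower (log2 fold change -0.15 ± 0.05, limma adjusted p = 0.0257), a call that was lost after median-ratio scaling and without control replicate 1 (-0.152), control replicate 3 (-0.126) or CITED2-deficient replicate 2 (-0.12). *Ptcd3* (0.00 ± 0.05), *Chchd1* (0.05 ± 0.11), *Aurkaip1* (-0.09 ± 0.05) and *Gadd45gip1* (-0.00 ± 0.08), given as log2 fold changes, did not pass the threshold.

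The calls were also counted by subunit and by origin of the protein, without a test of the difference. The large subunit had 10 lower and 1 higher call of 50 (median log2 fold change -0.08), and the small subunit had 5 lower and 2 higher calls of 26 (median -0.06). Homologs of bacterial ribosomal proteins had 7 lower and 2 higher calls of 48 (median -0.06), and mitochondria-specific proteins had 8 lower and 1 higher call of 28 (median -0.08). After median-ratio scaling the large subunit had 8 lower and 6 higher calls, and the small subunit had 3 lower and 2 higher calls. Homologs of bacterial proteins then had 5 lower and 7 higher calls, and mitochondria-specific proteins had 6 lower and 1 higher call. These counts therefore depended on the scaling. Of all tested genes 34.6% were lower and 16.7% were higher with FPKM as deposited, and 21.3% and 23.1% after median-ratio scaling. The summed FPKM of the large-subunit genes over that of the small-subunit genes was 2.23 ± 0.05 (SD, n = 3) in control and 2.25 ± 0.05 (SD, n = 3) in CITED2-deficient libraries, a difference smaller than the spread between replicates. The summed FPKM of all 77 genes was 1584, 1629 and 1590 in control and 1524, 1437 and 1499 in CITED2-deficient libraries. Every CITED2-deficient sum was below every control sum, and the mean fell by 7.15%, but after median-ratio scaling the means were 1543 and 1539 and the groups overlapped. The log2 fold change, with its sign, had a Spearman correlation across the 77 genes of -0.06 with the mean level, -0.03 with the transcript length, -0.02 with the GC content and 0.145 with the number of annotated transcripts. These are descriptions across genes that were measured in the same 6 libraries, not across independent samples.

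Other gene lists of mitochondrial translation and of the respiratory chain were counted in the same fit, beside the background of 34.6% lower and 16.7% higher given above. Of 16 tested mitochondrial translation factors 4 were lower and none was higher (median log2 fold change -0.13), namely *Mrrf*, the ribosome recycling factor (-0.28), *Guf1* (-0.22), *Mtif2*, the initiation factor (-0.19), and *Lrpprc*, which stabilizes mitochondrial mRNA (-0.18). After median-ratio scaling none of the 16 was called, and 2 were lower without control replicate 1 and 1 without CITED2-deficient replicate 3. Of 24 tested genes for mitoribosome assembly and rRNA modification 6 were lower and none was higher (median -0.12). *Mrm2*, a methyltransferase of the large-subunit rRNA, was at 4.58, 6.65 and 5.38 FPKM in control and 3.11, 3.71 and 3.48 FPKM in CITED2-deficient libraries (log2 fold change -0.55 ± 0.12, limma adjusted p = 0.00527). *Rbfa*, an assembly factor of the small subunit, was at 50.4, 52.8 and 50.7 FPKM in control and 37.7, 40.6 and 42.9 FPKM in CITED2-deficient libraries (log2 fold change -0.34 ± 0.05, limma adjusted p = 0.000517). The groups of both genes were apart, and both calls were kept after median-ratio scaling, whereas the other 4, *Mtg1*, *Malsu1*, *Trub2* and *Rcc1l*, were not. The 6 lower calls of this list numbered 3 without control replicate 1 or CITED2-deficient replicate 3, and 1 gene was higher without CITED2-deficient replicate 2. Of 16 tested mitochondrial aminoacyl-tRNA synthetases 8 were lower and none was higher (median -0.20), and 2 were lower after median-ratio scaling. Of these 16 genes 4 were lower without control replicate 1, control replicate 3 or CITED2-deficient replicate 2, and 5 without CITED2-deficient replicate 1. Of 13 tested regulators of mtDNA transcription and mitochondrial biogenesis 4 were lower, *Gabpb1* (-0.39), *Yy1* (-0.20), *Tfb2m* (-0.19) and *Gabpa* (-0.17), and *Gabpb1* alone kept the call after median-ratio scaling. *Nrf1* and *Tfam* had log2 fold changes of -0.13 and -0.06 and did not pass.

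Nuclear subunits of the complexes that the mitoribosome serves, the proteins of the cytosolic ribosome and the mRNAs that the mitoribosome translates were lower in most or many of their members. Of 79 tested nuclear subunits of the respiratory chain and ATP synthase 60 were lower and none was higher (median log2 fold change -0.25), and after median-ratio scaling 35 were lower and 1 was higher. Of 81 tested cytosolic ribosomal protein genes 75 were lower and 2 were higher (median -0.38), and after median-ratio scaling 69 were lower and 3 were higher. *Rpl29* was at 92.6, 90.3 and 88.1 FPKM in control and 244.3, 236.0 and 250.8 FPKM in CITED2-deficient libraries, against the direction of most of its list. The 13 mRNAs that the mitoribosome translates had 7 lower calls and none higher (median -0.28), from *mt-Nd6* (-0.86 ± 0.04, limma adjusted p = 4.64e-07) to *mt-Co1* (-0.28 ± 0.03, limma adjusted p = 9.54e-05). *mt-Co1*, the most abundant, was at 5441, 5485 and 5358 FPKM in control and 4436, 4662 and 4325 FPKM in CITED2-deficient libraries. The other 6 were listed at 1.42 to 29.8 FPKM in any library, far below the 7, and did not pass. Why these 6 were listed so low was not tested, so their values may not give the level of the mRNAs. Without control replicate 3, the highest control library for *mt-Atp6*, *mt-Co2* and *mt-Co3*, these 3 were called higher. The mean of the summed FPKM of the mtDNA-encoded mRNAs fell by 28.8%. That of the cytosolic ribosomal protein genes fell by 24.45% and that of the respiratory chain and ATP synthase subunits fell by 15.6%. The mean sum of the mitochondrial ribosomal protein genes fell by 7.15%. After median-ratio scaling the mean sums, in the same order, fell by 23.5%, fell by 18.9%, fell by 9.34% and fell by 0.272%, the last within the spread between replicates. The difference between the lists was not tested, because genes are not replicates of the condition.

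**Figure D3:**
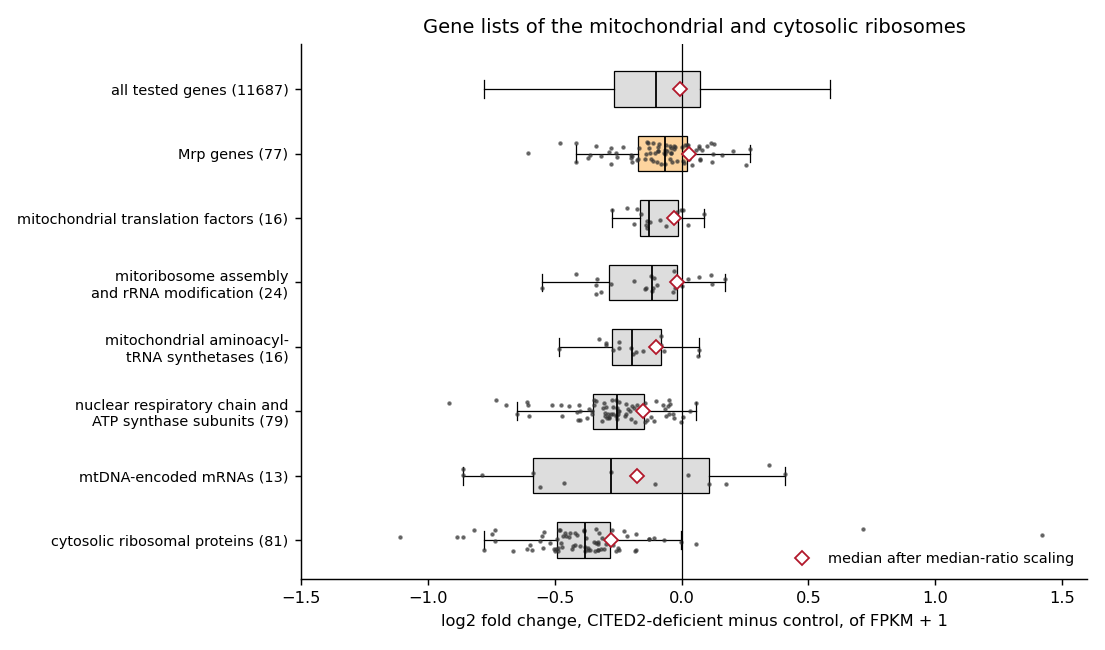
Log2 fold change (CITED2-deficient minus control, of FPKM + 1) of all tested genes, of the mitochondrial ribosomal protein genes (Mrp genes, orange) and of 6 related lists, with 1 point per gene except for all genes; boxes span the quartiles with the median as a line, whiskers reach 1.5 times the box, and white diamonds mark the median after median-ratio scaling. The median of the 77 genes lies at -0.07, right of the medians of the respiratory chain subunits (-0.25) and of the cytosolic ribosomal proteins (-0.38).

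Many of the 77 genes start next to another gene. A protein-coding gene on the opposite strand starts within 1000 bases of 33 of them by GENCODE vM21, and in 28 pairs the partner was tested and was not itself among the 77. The partner was lower in 7 pairs and higher in 2, the mitochondrial ribosomal protein gene was called in 5, and both were called in 1, where among all tested genes 34.6% were lower, 16.7% were higher and 51.3% were called. The median size of the log2 fold change was 0.0686 for the mitochondrial ribosomal protein genes of these pairs and 0.116 for their partners. The pairs named next were chosen after their values were seen.

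*Mrpl30* and *Mitd1*, an abscission protein, start 66 bases apart. *Mitd1* was at 11.3, 12.4 and 12.6 FPKM in control and 23.4, 24.6 and 24.4 FPKM in CITED2-deficient libraries (log2 fold change 0.94 ± 0.06, limma adjusted p = 1.42e-06), whereas *Mrpl30* had a log2 fold change of -0.02. *Mrpl44* and *Wdfy1*, an endosomal adaptor, start 125 bases apart. *Wdfy1* was at 27.2, 28.4 and 29.7 FPKM in control and 16.1, 14.9 and 15.2 FPKM in CITED2-deficient libraries (log2 fold change -0.85 ± 0.05, limma adjusted p = 1.96e-06). The groups of both partners were apart, and those of *Mrpl44* overlapped. *Mrpl49* starts 59 bases from *Fau*, which encodes cytosolic ribosomal protein S30 fused to a ubiquitin-like protein. *Fau* was at 715.2, 766.3 and 752.7 FPKM in control and 570.1, 523.5 and 586.1 FPKM in CITED2-deficient libraries (log2 fold change -0.41 ± 0.04, limma adjusted p = 6.65e-05), beside -0.04 for *Mrpl49*. *Mrpl47* starts 615 bases from *Ndufb5*, a subunit of respiratory complex I. *Ndufb5* was at 33.4, 33.8 and 32.0 FPKM in control and 24.7, 24.6 and 24.6 FPKM in CITED2-deficient libraries (log2 fold change -0.41 ± 0.04, limma adjusted p = 4.24e-05), beside 0.01 for *Mrpl47*. The pair in which both were called was *Mrpl41* and *Pnpla7*, a lysophospholipase, whose starts are 935 bases apart. *Pnpla7* was at 161.1, 158.6 and 166.7 FPKM in control and 129.4, 132.6 and 133.7 FPKM in CITED2-deficient libraries (log2 fold change -0.30 ± 0.03, limma adjusted p = 5.70e-05). The difference between the 2 genes of a pair was not tested.

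**Figure D4:**
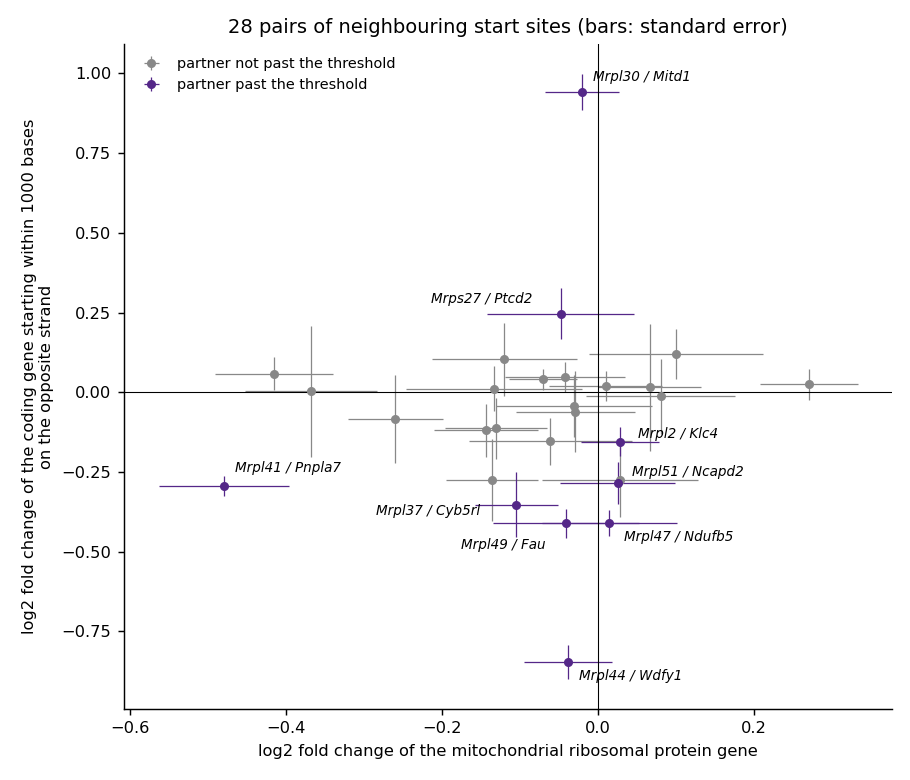
Log2 fold change of the mitochondrial ribosomal protein gene (horizontal) and of the coding gene that starts within 1000 bases of it on the opposite strand (vertical) in 28 pairs; bars are standard errors from limma over 3 control and 3 CITED2-deficient libraries, and purple pairs are those whose partner passed the threshold. *Mitd1* at 0.94 and *Wdfy1* at -0.85 stand far from 0 while their neighbors *Mrpl30* and *Mrpl44* stand near it.

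Overlapping genes limit some of these values, since no source used here says whether reads were counted by strand. Of the 77 genes 41 overlap another gene, 35 of them a gene on the opposite strand. *Mrpl24* overlaps *Rrnad1* over 1072 bases, and *Rrnad1* was at 13.03, 11.98 and 13.07 FPKM in control and 9.385, 11.9 and 9.08 FPKM in CITED2-deficient libraries, also called lower (log2 fold change -0.31, limma adjusted p = 0.0252). *Rrnad1* lost the call after median-ratio scaling (-0.212) and without control replicate 1 (-0.289), control replicate 3 (-0.287), CITED2-deficient replicate 1 (-0.262) or CITED2-deficient replicate 3 (-0.24). *Mrpl48* overlaps *Rab6a* over 892 bases, and *Rab6a* had a log2 fold change of 0.06. Processed pseudogenes share sequence with *Mrpl23*, *Mrpl48* and *Mrps36*. *Mrpl23-ps1* had 3, 3 and 4 fragments in control and 9, 10 and 16 in CITED2-deficient libraries, and *Mrpl48-ps* had 1, 1 and 2 fragments in control and 6, 6 and 5 in CITED2-deficient libraries. *Mrpl23* itself had 398, 398 and 423 fragments in control and 459, 400 and 469 in CITED2-deficient libraries, and *Mrpl48* had 493, 495 and 494 and then 565, 422 and 489.

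The start sites of the called genes were read from the RefSeq promoter windows on GRCm38.p6, which reach from 250 bases before to 50 bases after a start and were found for 68 of the 77 genes, including all 19 that were called. The following sequences are the 100 bases before the start of genes that were called, 3 of the largest falls and 2 of the rises, chosen because no GENCODE exon overlaps them. They run 5′ to 3′ on the strand of the gene, and capitals mark CCGGAAG, the letters bound by ETS factors such as GABPA, found on either strand.
*Mrpl41* (fell), chr2:24975099-24975198, minus strand: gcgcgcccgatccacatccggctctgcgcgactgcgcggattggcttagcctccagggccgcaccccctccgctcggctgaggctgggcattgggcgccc
*Mrpl48* (fell), chr7:100608302-100608401, minus strand: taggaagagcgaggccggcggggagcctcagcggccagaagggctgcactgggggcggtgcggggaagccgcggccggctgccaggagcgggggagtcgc
*Mrpl58* (fell), chr11:115403652-115403751, plus strand: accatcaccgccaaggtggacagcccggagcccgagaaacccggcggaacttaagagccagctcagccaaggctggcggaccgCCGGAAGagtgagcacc
*Mrpl55* (rose), chr11:59202386-59202485, plus strand: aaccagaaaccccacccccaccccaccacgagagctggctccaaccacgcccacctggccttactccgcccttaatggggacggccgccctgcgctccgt
*Mrps22* (rose), chr9:98601680-98601779, minus strand: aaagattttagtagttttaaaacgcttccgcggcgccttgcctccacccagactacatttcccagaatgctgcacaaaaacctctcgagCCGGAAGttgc

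Within these 100 bases the letters occur before a gene that fell (*Mrpl58*) and before a gene that rose (*Mrps22*). The GC content of the 5 stretches was 74% for *Mrpl41*, 77% for *Mrpl48*, 66% for *Mrpl58*, 68% for *Mrpl55* and 49% for *Mrps22*. Over the whole windows and on both strands, CCGGAAG was found in 25 of 68 genes (36.8%), where 21.9% of the promoters of tested genes and 9.93% of all promoters hold it. Of those 25 genes 8 were lower, 2 were higher and 15 did not pass. Of all 68 genes 16 were lower and 3 were higher, where 34.6% and 16.7% of all tested genes were. Whether calls differed between genes with and without a motif was not tested. AAGATGGC, the letters of the YY1 motif, was found in 12 genes (17.6%, against 5.79% of tested and 3.19% of all promoters). None of these 12 was called with FPKM as deposited, and *Mrpl35* and *Mrps18a* among them were called higher after median-ratio scaling. CGCATGCG, the inner letters of the NRF1 motif, was found in 7 genes (10.3%, against 4.65% and 2.07%), of which 1 was lower and 1 was higher. The full NRF1 motif, which has a further G before and C after these letters and so is counted among them, was found in 3 genes (4.41%, against 2.51% and 1.07%). CACGTG, the E-box bound by MYC, was found in 5 genes (7.35%, against 12.1% and 8.09%). None of these 5 was called with FPKM as deposited, and *Mrpl20* among them was called higher after median-ratio scaling. The median log2 fold change of the genes with a motif was -0.06 for CCGGAAG, -0.04 for AAGATGGC, -0.05 for CGCATGCG and -0.03 for CACGTG, each within 0.1 of 0. These are matches of letters, which do not show that a factor bound there.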

How the data were processed

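The authors depleted ribosomal RNA, prepared stranded libraries, aligned them to mm10 with STAR and deposited 1 FPKM per gene and library from Cuffdiff with GENCODE genes. No versions are given in the labels or methods. FPKM are relative to library size, so a change in abundant genes shifts the others. Fragments were recovered with the mean transcript lengths of GENCODE vM21, and 96.1% of 22239 matched genes came out whole in each library, within 0.02. The ± of a log2 fold change is its standard error from limma, and the ± marked SD is the spread between replicates. Genes whose FPKM averaged at least 1 were tested with limma 3.58.1 (R 4.3.3) on log2(FPKM + 1) with a variance trend, Benjamini-Hochberg adjusted over 11687 genes. The fit was tested on simulated data. Replicates differed by more than sampling noise (mean chi-square per gene of 2.26 to 5.87 over all genes). For the 72 mitochondrial ribosomal protein genes with whole fragment numbers it was 1.51 to 2.9. None was therefore counted as the same library sequenced again. This does not show that the libraries came from separate mice or cultures.

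The 77 genes and all other lists were chosen with earlier results of these data known. Named are the 8 largest falls and up to 8 largest rises past the threshold, the 3 highest and 3 lowest genes by mean FPKM, the *Mrps18* genes, genes with a described role, and the largest changes of other lists. Other settings were pseudocounts of 0.1 and 0.5, all expressed genes, a minimum of 5 FPKM, median-ratio scaling, quantile normalization, no variance trend, array weights, limma-voom with TMM scaling on recovered fragments, removal of the length and GC trend, a replicate block, groups that do not overlap, and each library left out.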

Additional observations from a re-analysis of the deposited data

How the results depend on the processing

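The 16 lower calls numbered 10 with limma-voom on recovered fragments (22.4% of all genes lower, 24.0% higher) and 13 to 17 with 1 library left out. For genes whose fragment numbers did not come out whole, such as *Mrpl28*, limma-voom used rounded values. The 3 higher calls numbered 1 with no filter, 8 after median-ratio scaling, 7 after quantile normalization, 7 with limma-voom, 5 by groups that do not overlap, and 1 to 5 with 1 library left out (1 without control replicate 1 or CITED2-deficient replicate 3, 5 without control replicate 2). Of all tested genes, 23.1% were higher after median-ratio scaling, 24.0% with limma-voom and 19.0% by groups that do not overlap. The shares with no filter and after quantile normalization are not given here. With 1 library left out, 5211 to 5475 of all tested genes were called in either direction, against 5994 with all libraries. The median log2 fold change of the 77 genes, -0.07, was 0.0304 after median-ratio scaling, -0.00122 after quantile normalization and 0.0318 with limma-voom. Its difference from the median of all tested genes, 0.0332, was -0.0416 with no filter, where more genes are tested. The cause of the other shifts was not tested.

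Genes that did not pass the threshold changed sign as follows. After median-ratio scaling, quantile normalization and limma-voom, in that order, the log2 fold changes were 0.0578, 0.043 and 0.0751 for *Mrps30*, 0.0696, 0.0321 and 0.0784 for *Mrps18c*, 0.0308, 0.00622 and 0.0362 for *Mrpl45*, 0.0604, 0.0347 and 0.0644 for *Mrpl44*, 0.0493, 0.0411 and 0.0512 for *Mrpl32*, and 0.08, 0.0602 and 0.0972 for *Gadd45gip1*. After median-ratio scaling and limma-voom they were 0.0388 and 0.0489 for *Mrps12* and 0.0142 and 0.0186 for *Aurkaip1*. With the length and GC trend removed, with or without the replicate block, *Mrpl47* was at -0.00255 and *Mrps12* at 0.00614, and with array weights *Ptcd3* was at -0.0013. With 1 library left out the values ran from -0.0276 to 0.0455 for *Mrpl47*, -0.0645 to 0.00358 for *Mrps30*, -0.158 to 0.0421 for *Mrps18c*, -0.082 to 0.00618 for *Mrpl32*, -0.125 to 0.0624 for *Mrps12*, -0.0333 to 0.0279 for *Ptcd3*, -0.0978 to 0.152 for *Chchd1* and -0.0265 to 0.00934 for *Gadd45gip1*.

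Libraries with the same number did not deviate together (r = 0.0138, 0.00784 and 0.0402), so no pairing by number was seen. A lack of shared deviation cannot show that these libraries were prepared apart. With the replicate block 16 genes were lower and 2 were higher, and with the block and the length and GC trend removed 15 were lower and 4 were higher. Without the block 34.6% of all tested genes were lower and 16.7% were higher. The shares of all tested genes with the block are not given here, so these counts cannot be set against them.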
